A study of Mus musculus with 2 samples.

Results

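The genes *Ccl2*, *Ccl7*, *Ccl8* and *Ccl12* encode the monocyte chemoattractant proteins of the mouse, and they were described here in myeloid cells of injured muscle. They were taken by name from the 13289 genes listed for both libraries of the study, and all 4 were listed in both. The genes had been chosen as ligands of the receptor Ccr2 whose levels go opposite ways between the libraries over myeloid states. The differences between libraries below are therefore a description and not a test of that pattern. Both libraries came from tibialis anterior muscle, taken 4 days after 50 µl of 10 µM cardiotoxin, a snake venom toxin that lyses muscle fibres, was injected. Viable (Zombie aqua-) CD45+ CD11b+ cells without Ly6G, a gate for myeloid cells other than neutrophils, were sorted, and 8000 cells per library were loaded for droplet sequencing of transcript 3' ends. The Wt library came from C57BL/6 mice, which carry no Cre. The Gata3KO library came from C57BL/6:Cx3cr1CRExGata3fl/fl mice, in which Cre under control of *Cx3cr1* removes the floxed transcription factor gene *Gata3* from monocytes, macrophages and other cells that use *Cx3cr1*. The age and number of the mice were not given in the sources used here, and the control has the strain background but not the Cre allele.

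Chemokines are small secreted proteins that direct the movement of leukocytes through G protein-coupled receptors. Ccl2, Ccl7 and Ccl12 (MCP-1, MCP-3 and MCP-5) bind Ccr2 on classical monocytes, release these cells from bone marrow and draw them into injured tissue, where they become macrophages. Ccl7 also acts on Ccr1 and Ccr3, and mouse Ccl8 (MCP-2) acts mainly on Ccr8. In injured muscle, recruitment through Ccr2 supplies most of the phagocytes that clear dead fibres.

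The genes lie together on the plus strand of chromosome 11. In mm10, *Ccl2* (ENSMUSG00000035385) covers chr11:82035571-82037453, *Ccl7* (ENSMUSG00000035373) covers chr11:82045712-82047525, *Ccl12* (ENSMUSG00000035352) covers chr11:82101845-82103400 and *Ccl8* (ENSMUSG00000009185) covers chr11:82115185-82116799. The span is 81.2 kb and holds 5 protein-coding genes, the other being the eosinophil chemokine gene *Ccl11*, between *Ccl7* and *Ccl12*. The longest transcript of each of the 4 has 3 exons. Their coding sequences are related: *Ccl8* and *Ccl12* were identical at 65.1% of aligned positions, *Ccl7* matched these at 63.7% and 63.2%, and *Ccl2* matched the other 3 at 47.2% to 48.9%. No stretch of 31 bases in the transcript of any of the 4 occurred in a transcript of another gene.

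Upstream sequences are shown for the neighbours *Ccl8* and *Ccl12*, the only 2 of the 4 genes matched among RefSeq promoter sequences (GRCm38.p6). No window of *Ccl2* or *Ccl7* was available to compare, and a link of these sequences to the library differences was not tested. Each sequence below is the 250 bases before the start of the gene, 5′ to 3′ on the plus strand, with *Ccl8* at chr11:82114935-82115184 and *Ccl12* at chr11:82101595-82101844. Capitals mark a TATA box (TATAAAA) and a match to the core of the myeloid factor PU.1 (GAGGAA, or TTCCTC where the match is on the minus strand).
Ccl8: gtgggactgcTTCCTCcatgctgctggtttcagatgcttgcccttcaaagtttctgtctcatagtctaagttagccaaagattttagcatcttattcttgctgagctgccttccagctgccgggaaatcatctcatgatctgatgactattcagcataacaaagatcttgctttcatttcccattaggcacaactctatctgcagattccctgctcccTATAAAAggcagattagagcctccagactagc
Ccl12: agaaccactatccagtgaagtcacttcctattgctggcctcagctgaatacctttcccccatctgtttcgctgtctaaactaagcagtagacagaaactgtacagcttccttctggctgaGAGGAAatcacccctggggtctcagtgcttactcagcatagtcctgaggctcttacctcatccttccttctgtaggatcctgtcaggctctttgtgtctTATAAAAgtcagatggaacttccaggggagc
Both upstream sequences held TATAAAA, from -32 to -26 before the start of *Ccl8* and from -31 to -25 before that of *Ccl12*. On both strands this run occurs in 4.98% of 32851 mouse promoter windows of the same length. The PU.1 letters were at -240 to -235 in *Ccl8* and at -130 to -125 in *Ccl12*, and 23.3% of windows hold them. Neither window held the NF-kappaB letters GGG and CC with any 5 bases between them (45.8% of windows), the interferon-stimulated response element letters GAAA and GAAA with any 2 bases between them (2.98%), TGANTCA for AP-1 (6.75%) or TTGCNNAA for C/EBP (9.56%). None of these motifs overlapped another in these windows, and aligned to each other the windows were identical at 54.5% of positions. A match of letters is a description and not a binding site.

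There were 3290 barcodes with 15392330 UMIs in Wt and 3434 barcodes with 19422237 UMIs in Gata3KO (unique molecular identifiers, each counting a transcript). After a limit of 10% on mitochondrial UMIs, 990 and 650 cells were kept. Of these, 338 Wt and 426 Gata3KO cells fell in 6 clusters of monocytes and macrophages, with medians of 10364.5 and 18082 UMIs per cell. Barcodes occurring in both libraries numbered 2, none of them kept, and Scrublet called 0 doublets in either library, so doublets remained in. *Gata3* could not check the deletion, at 4 UMIs in Wt and 1 in Gata3KO, and its 3' tags need not lie in the floxed part. *Cx3cr1*, the driver of the Cre, was at 274 CPM (UMIs of the gene per 1000000 UMIs of the set) in Wt and at 387 CPM in Gata3KO cells of this class. *Ly6g* was not among the listed genes, and *Ptprc* (CD45) was detected in 90.1% to 99.4% of cells in the 6 clusters. With 1 library per genotype there is no test, cells are not replicates, and a difference between genotypes cannot be told apart from one between the mice or preparations. Intervals are exact, at the 95% level, and cover counting error only. Since a few cells held most UMIs of each gene, they are narrower than the spread between cells would make them.

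The 6 clusters, called states here, were found without the 4 chemokine genes. A monocyte-like state was led by *Hp*, *Clec4e*, *Plac8* and *Vcan* (48 Wt and 11 Gata3KO cells), and an interferon state by *Cxcl9*, *Iigp1*, *Cxcl10*, *Ifit2* and *Gbp2* (115 and 12). The latter is named for its leading genes. The mean z-score of the interferon-response markers was 1.59 in the monocyte-like state and 1.43 in the interferon state, so they were high in both. A resident-like state was led by *Dab2*, *Mrc1*, *Cbr2*, *F13a1* and *Pf4* (37 and 84). A stress state was led by *Cxcl2*, *Arg1*, *Gdf15*, *Ier3* and *Hmox1* and carried the lipid-handling macrophage markers (19 and 155), and a second lipid-handling state was led by *Atp6v0d2*, *Mmp12*, *Fabp5* and *Gpnmb* (32 and 79). The last state, led by *Npl*, *Hebp1*, *Lpcat2* and *Il18bp*, carried general macrophage markers (87 and 85). The libraries thus filled the class with different states: the interferon state was 34.0% of it in Wt and 2.82% in Gata3KO, and the stress state was 5.62% and 36.4%. Only the resident-like, *Mmp12* and *Npl* states had at least 20 cells of each library, and values from the smaller sets are named as such.

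Summed over monocytes and macrophages, *Ccl7* was higher in the Gata3KO library, *Ccl8* and *Ccl12* were lower, and *Ccl2* was level. Past a 1.5-fold difference, 1 of the 4 was higher and 2 were lower. Of 5849 measured genes, 3.40% were higher and 6.33% lower by that fold, 9.73% in all, and nothing is read from this comparison since the genes were chosen on it. In the resident-like state 3 of the 4 were higher and 0 lower, beside 11.7% and 12.6% of all genes measured there. In the *Npl* state 1 of 2 measured was lower and 0 higher, beside 8.43% and 5.53%, and in the *Mmp12* state 2 of 3 measured were lower and 0 higher, beside 10.8% and 14.4%.

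**Figure D1:**
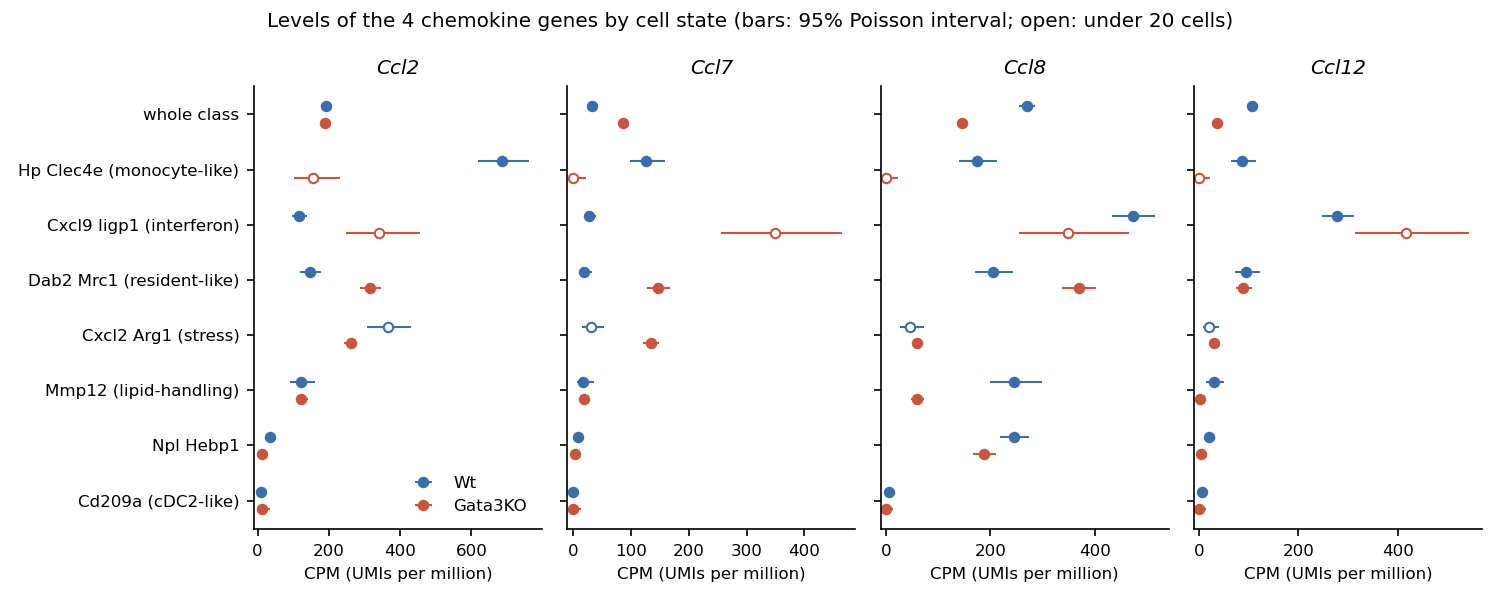
Levels of the 4 genes in CPM, for the class of monocytes and macrophages, its 6 states and cDC2-like cells as background, in Wt (blue) and Gata3KO (red). Bars are 95% Poisson intervals and open points are sets under 20 cells. Among the filled points, *Ccl2* peaks in the Wt monocyte-like state at 687 CPM, and *Ccl8* and *Ccl12* in the Wt interferon state at 473 and 278. Without the top cell of each gene, *Ccl8* and *Ccl12* in that Wt state were at 353 and 185 CPM. The open point of the 12 Gata3KO interferon cells lies higher for *Ccl12* (417), and all 4 genes are near 0 in cDC2-like cells.

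*Ccl2* is the main Ccr2 ligand. It stood at 193 CPM in Wt (823 UMIs) and 190.0 CPM in Gata3KO (1485 UMIs), a log2 ratio of -0.02 (interval -0.15 to 0.10). The class totals therefore did not differ beyond counting error. The sources of these totals did differ: the Wt monocyte-like state gave 45.2% of the Wt *Ccl2* UMIs, and the stress state gave 50.3% of the Gata3KO UMIs. Levels are ranked here over the 21 sets of state and library with at least 20 cells, and smaller sets are given apart. In that order the Wt monocyte-like state was first at 687 CPM (619 to 760). The Gata3KO resident-like state followed at 315 CPM (286 to 345) and the Gata3KO stress state at 261 CPM (242 to 280). These 3 did not overlap one another. Below them, each set overlapped its neighbours in the order, down to 12.9 CPM in the Gata3KO *Npl* state, 11.6 and 10.3 CPM in Gata3KO and Wt cDC2-like cells, and 0 UMIs in 71 Wt mature dendritic cells. In all, 18 of 20 neighbouring pairs had overlapping intervals. Outside the order, 5 Gata3KO fibroblast-like cells stood at 742 CPM, with all 95 UMIs in 1 cell.

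Within states, *Ccl2* did not keep to one direction. In the resident-like state it was 146 CPM in Wt and 315 in Gata3KO, a log2 ratio of 1.11 (0.78 to 1.45). In the *Npl* state it was 34.7 and 12.9 CPM, a ratio of -1.43 (-2.26 to -0.64), from 42 and 21 UMIs. In the *Mmp12* state it was 123 CPM in each library (0.01, -0.45 to 0.48), and 24 of the 50 Wt UMIs there were in 1 cell. Without the top cell of each library the *Mmp12* ratio was 0.61, and with cells thinned to 2000 UMIs it was 0.78. The level class total thus holds a higher and a lower state, and a state whose ratio depended on 1 cell. In thinned cells, *Ccl2* was detected in 15.2% of Wt and 30.3% of Gata3KO resident-like cells, with overlapping intervals. In the *Npl* state these shares were 6.90% and 1.22%, also with overlapping intervals. The 19 Wt cells of the stress state stood at 365 CPM, the 12 Gata3KO cells of the interferon state at 341 against 115 in Wt, and the 11 Gata3KO monocyte-like cells at 157. Of the 25 *Ccl2* UMIs in those 11 cells, 21 were in 1 cell.

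*Ccl7*, which lies next to *Ccl2* and encodes a ligand of Ccr2 with wider receptor use, stood at 32.6 CPM in Wt (27.4 to 38.5, 139 UMIs) and 86.8 CPM in Gata3KO (80.3 to 93.5, 678 UMIs). It was 2.66-fold higher in Gata3KO, a log2 ratio of 1.41 (1.15 to 1.68). A single Wt cell of the monocyte-like state held 53 of the 139 Wt UMIs (38.1%). Without the top cell of each library the levels were 20.3 and 76.9 CPM, and the ratio was 1.93 (1.60 to 2.27), so the size of the fold depended on 1 cell. Among sets with at least 20 cells, the Gata3KO resident-like state (147 CPM), the Gata3KO stress state (134) and the Wt monocyte-like state (126) led, with overlapping intervals. Without its top cell, that Wt state stood at 28.5 CPM. The next set in the order was the Wt interferon state at 27.7 CPM, and 19 of 20 neighbouring pairs overlapped.

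In the resident-like state *Ccl7* was 19.0 CPM in Wt (12 UMIs) and 147 in Gata3KO (210 UMIs), a log2 ratio of 2.95 (2.11 to 3.92), and 3.26 without the top cell of each library. Detection there was 5 of 37 Wt and 32 of 84 Gata3KO cells at full depth. In the *Mmp12* state the levels were 17.2 and 19.4 CPM (0.18, -1.04 to 1.60), and in the *Npl* state 8.27 and 3.68 CPM (-1.17, -2.91 to 0.43), from 31 UMIs or fewer per library. Those 2 intervals include 0. The *Mmp12* ratio was 1.75 without the top cell of each library and -0.72 with thinned cells, so its direction depended on the setting. The 19 Wt cells of the stress state stood at 30.8 CPM against 134 in Gata3KO. The 12 Gata3KO cells of the interferon state stood at 348 CPM, with 29 of 46 UMIs in 1 cell, against 27.7 in Wt. The 11 Gata3KO monocyte-like cells had 0 *Ccl7* UMIs, and a count of 0 allows up to 18.8 CPM (3 counts).

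**Figure D2:**
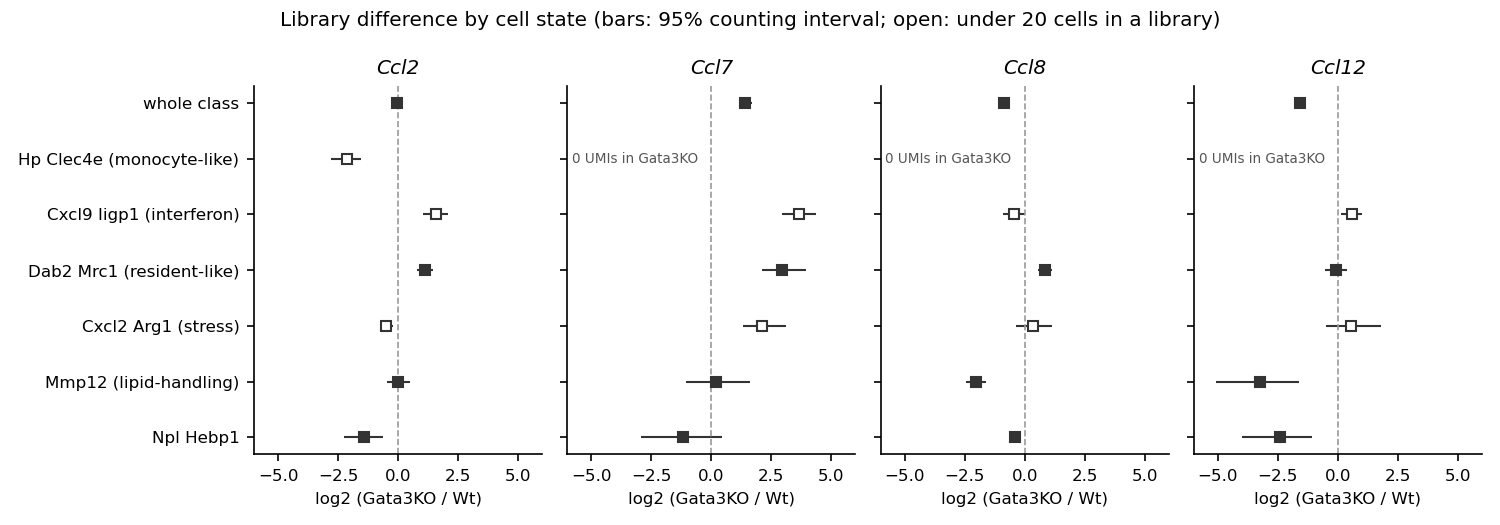
Log2 ratio of Gata3KO over Wt for the 4 genes in the class and in each state, with 95% counting intervals. Filled squares are sets with at least 20 cells of each library. In the resident-like state *Ccl2* (1.11), *Ccl7* (2.95) and *Ccl8* (0.85) lie right of 0 and *Ccl12* (-0.09) lies on it, while *Ccl12* lies left of 0 in the *Npl* and *Mmp12* states.

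*Ccl8*, the ligand of Ccr8, was lower in the Gata3KO library. It stood at 269.7 CPM in Wt (254 to 286, 1149 UMIs) and 146 CPM in Gata3KO (138 to 155, 1144 UMIs), 1.84-fold lower, with a log2 ratio of -0.88 (-1.001 to -0.76). The intervals of the levels did not overlap. With levels averaged over the 3 states with at least 20 cells of each library, each weighted alike, they were 231.6 and 205.5 CPM (-0.17). In Wt, 44.6% of its UMIs came from the interferon state and 25.8% from the *Npl* state, and in Gata3KO 46.1% came from the resident-like state. The Wt interferon state had the highest level at 473 CPM (433 to 515). There 1 cell held 141 of the 512 *Ccl8* UMIs, and without it the level was 353 CPM. A Wt cluster of barcodes rich in muscle transcripts (*Acta1*, *Myog*) followed at 459 CPM, but 1 of its 33 cells held 81 of its 109 *Ccl8* UMIs, and without that cell its level was 125 CPM. The Gata3KO resident-like state was next at 369 CPM (338 to 402), or 287 CPM without its top cell. The intervals of these neighbours in the order overlapped. Among sets of the class with at least 20 cells, the lowest were the Gata3KO *Mmp12* state at 60.0 CPM and the Gata3KO stress state at 59.0 CPM.

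The difference in *Ccl8* was not shared by all states. In the resident-like state it was 205 CPM in Wt and 369 in Gata3KO, a log2 ratio of 0.85 (0.57 to 1.14). Of the 129 Wt UMIs there, 74 were in 1 cell, and without the top cells the levels were 91.1 and 287 CPM (1.65). In the *Mmp12* state it was 245 and 60.0 CPM (-2.03, -2.45 to -1.61). Of the 100 Wt UMIs there, 59 were in 1 of the 7 cells with any, and without the top cells the ratio was -1.60. In the *Npl* state it was 245 and 188 CPM (-0.38, -0.62 to -0.15), a direction that turned with every cell weighted alike (0.07) and with cells thinned to 2000 UMIs (0.32). The resident-like and *Mmp12* states thus went opposite ways, also without their top cells. In thinned cells, *Ccl8* was detected in 15.2% of Wt and 18.4% of Gata3KO resident-like cells, with overlapping intervals. In the *Mmp12* state these shares were 15.6% and 3.80%, also with overlapping intervals. The 12 Gata3KO cells of the interferon state stood at 348 CPM, and the 11 Gata3KO monocyte-like cells had 0 *Ccl8* UMIs against 94 in Wt, of which 73 were in 1 cell.

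*Ccl12*, the mouse Ccr2 ligand MCP-5, was also lower in the Gata3KO library. It stood at 106 CPM in Wt (96.5 to 116, 452 UMIs) and 35.7 CPM in Gata3KO (31.6 to 40.1, 279 UMIs), 2.97-fold lower, with a log2 ratio of -1.57 (-1.79 to -1.35). A single Wt cell of the interferon state held 107 of the 452 UMIs, and without the top cells the ratio was -1.37 (-1.61 to -1.13). The Wt interferon state gave 66.6% of the Wt UMIs, and *Ccl12* ranked first among the leading genes of that state although it was not used to find it. In Gata3KO, the resident-like state gave 45.9% and the stress state 30.5%. Among sets with at least 20 cells, the Wt interferon state had the highest level at 278 CPM (247 to 311), and its interval overlapped none of the others. Without its top cell that state stood at 185 CPM. A Wt cluster of cycling cells followed at 129 CPM, with 45 of its 92 UMIs in 1 cell. The muscle-transcript cluster (105 CPM), the resident-like state in both libraries (95.2 and 89.5 CPM) and the Wt monocyte-like state (86.8 CPM) came next, with overlapping intervals.

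Within the resident-like state *Ccl12* did not differ beyond counting error, at 95.2 CPM in Wt and 89.5 in Gata3KO (-0.09, -0.54 to 0.38). The ratio ran from -0.66 to 2.04 over the alternatives for this state. In the *Npl* state it was 19.9 and 3.68 CPM (-2.43, -4.01 to -1.10), from 24 and 6 UMIs. In the *Mmp12* state it was 29.4 and 3.12 CPM, but 11 of the 12 Wt and 4 of the 5 Gata3KO UMIs were in 1 cell each. The 12 Gata3KO cells of the interferon state stood at 417 CPM (314 to 542), above the 278 CPM of the 115 Wt cells of that state, with UMIs in 7 of the 12. The 11 Gata3KO monocyte-like cells had 0 *Ccl12* UMIs, which allows up to 18.8 CPM, against 47 UMIs (86.8 CPM) in Wt. In the stress state the 19 Wt cells stood at 20.6 CPM, against 29.7 in Gata3KO. Of the Wt *Ccl12* UMIs of the class, the interferon state held 66.6%, the monocyte-like state 10.4% and the *Npl* state 5.31%. The part of the mix of states in the lower class total was not tested. With levels averaged over the 6 states, each weighted alike, *Ccl12* was 88.3 CPM in Wt and 90.4 in Gata3KO (0.03), and over the 3 states with at least 20 cells of each library it was 48.2 and 32.1 (-0.58). The 6-state average counts the 12 Gata3KO interferon cells like any larger state.

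Marker sums of muscle, interferon response, monocytes and resident macrophages differed between the libraries, while those of fibroblasts and endothelium were near level. The 10 skeletal muscle markers summed to 163 CPM in Wt and 56.8 CPM in Gata3KO cells of the class, with *Pax7* at 0 in both. Over the 5 Wt and 4 Gata3KO states with at least 20 cells, the sums ran from 38.8 to 244 CPM and from 30.8 to 74.2, and the ranges below are over the same states. The 10 interferon-response markers summed to 3700 CPM in Wt (1444 to 7759 over states) and 545 CPM in Gata3KO (290.0 to 660.1), with none at 0. In the smaller sets they summed to 4144 CPM in the 12 Gata3KO interferon cells and 1541 CPM in the 11 Gata3KO monocyte-like cells. The 10 monocyte markers summed to 1645 CPM (447 to 7811) and 978 CPM (713 to 1277), with 5025 CPM in those 11 Gata3KO cells. The 10 resident macrophage markers summed to 2591 CPM (1038 to 3405, *Lyve1* at 0) and 4064 CPM (1863 to 5964). Fibroblast markers (*Pdgfra* at 0 in Wt), whose cells also make *Ccl2* and *Ccl7*, summed to 349 and 335 CPM, and endothelial markers to 17.4 and 15.6 CPM. The part of muscle, interferon, monocyte and resident macrophage content in the chemokine differences was not tested.

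The share of cells with a UMI was lower in Gata3KO for *Ccl12* at both depths compared. For *Ccl7* and *Ccl8*, whether the interval of the difference included 0 depended on the depth. With each cell thinned to 2000 UMIs (325 Wt and 410 Gata3KO cells, leaving out 13 and 16), *Ccl2* was detected in 15.4% of Wt (11.6 to 19.8%) and 17.1% of Gata3KO cells (13.6 to 21.1%), a difference of 1.69 percentage points (-3.94 to 7.17). *Ccl7* was detected in 4.62% (2.61 to 7.50%) and 6.34% (4.18 to 9.15%), a difference of 1.73 points (-1.88 to 5.18). *Ccl8* was detected in 16.9% (13.01 to 21.5%) and 10.2% (7.48 to 13.6%), a difference of -6.68 percentage points (-12.0 to -1.53). *Ccl12* was detected in 10.2% (7.09 to 14.0%) and 4.88% (3.005 to 7.43%), a difference of -5.28 points (-9.52 to -1.29). With cells thinned to 1000 UMIs, the *Ccl7* shares were 2.70% and 6.19%, a difference of 3.49 points (0.32 to 6.60). At that depth *Ccl8* differed by -3.97 points (-8.46 to 0.32), *Ccl12* by -4.76 (-8.24 to -1.65) and *Ccl2* by -0.92 (-5.50 to 3.48). At full depth the shares were 34.9% and 41.3% for *Ccl2*, 13.02% and 22.3% for *Ccl7*, 30.2% and 23.5% for *Ccl8*, and 24.6% and 13.6% for *Ccl12*, with deeper Gata3KO cells. As a background for free RNA, thinned Wt cDC2-like cells (82 cells, median 8161.5 UMIs before thinning) had shares of 2.44% for *Ccl2*, 1.22% for *Ccl8* and 2.44% for *Ccl12*. *Ccl7* was in 0 of these 82 cells, which allows up to 3.66%, and all 4 were in 0 of 24 Gata3KO cells, which allows up to 12.5%. The 4.62% of Wt cells with *Ccl7* lies above the 3.66% that this background allows, but its interval includes it. The Gata3KO shares of *Ccl7*, *Ccl8* and *Ccl12* lie below 12.5%, so the 24 Gata3KO cells are too few to set these shares above background.

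**Figure D3:**
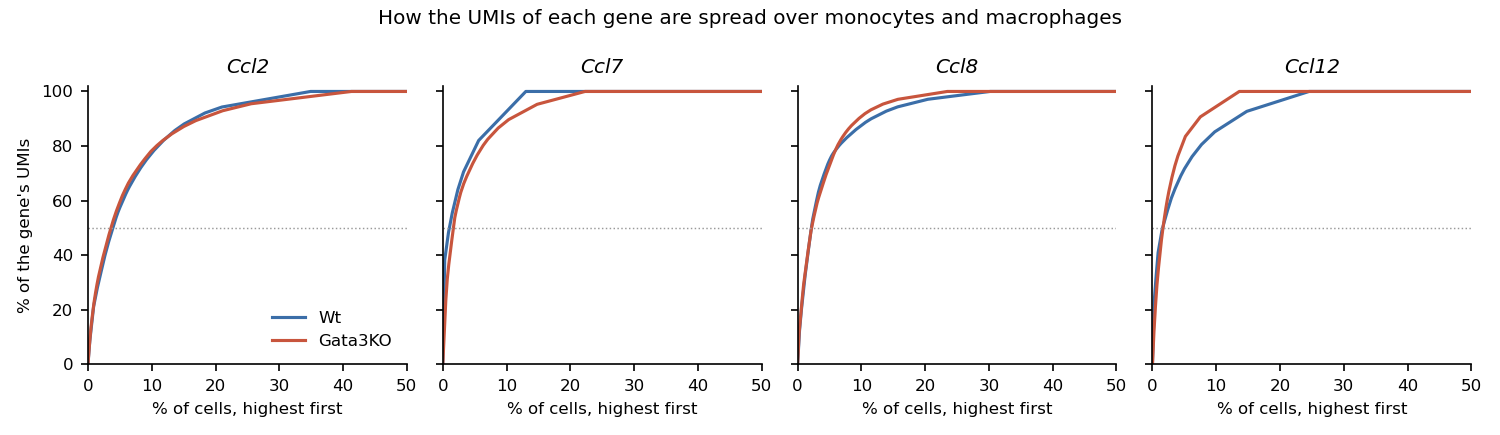
Percent of the UMIs of each gene against percent of the monocytes and macrophages, taken from the cell with the most UMIs down, in Wt (blue) and Gata3KO (red). The dotted line at 50% is crossed after 14 and 16 cells for *Ccl2*, 4 and 8 for *Ccl7*, 8 and 10 for *Ccl8* and 6 and 8 for *Ccl12*.

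Each of the genes was concentrated in few cells. Of the *Ccl2* UMIs, 50% were in 14 of 338 Wt and 16 of 426 Gata3KO cells. For *Ccl7* these numbers were 4 and 8 cells, for *Ccl8* 8 and 10, and for *Ccl12* 6 and 8. The 10 highest cells held from 39.1% (*Ccl2*, Gata3KO) to 68.3% (*Ccl7*, Wt) of the UMIs. At the other end, 39.8% of the 118 Wt cells with *Ccl2* and 56.8% of the 44 Wt cells with *Ccl7* had 1 UMI. A pattern of a few high cells over many low ones was thus present in both libraries, as the curves of UMIs over cells show. Cells with at least 10 *Ccl7* UMIs numbered 1 in Wt and 14 in Gata3KO, and those 14 cells (3.29% of the class) held 66.2% of the Gata3KO *Ccl7* UMIs. For *Ccl12* such cells numbered 10 in Wt and 9 in Gata3KO, for *Ccl8* 22 and 30, and for *Ccl2* 25 and 42. These counts are not thinned, and the Gata3KO cells were deeper.

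High cells often carried several of the genes. The Wt cell with the most *Ccl8* (141 UMIs, of 31948 in all) was also the Wt cell with the most *Ccl12* (107 UMIs), and it had 24 *Ccl2* and 3 *Ccl7* UMIs. It belonged to the interferon state. The Gata3KO cell with the most *Ccl2* (107 UMIs, of 25404) was the one with the most *Ccl7* (79 UMIs), with 0 *Ccl8* and 0 *Ccl12* UMIs, in the stress state. The Gata3KO cell with the most *Ccl12* (33 UMIs) had 47 *Ccl2*, 54 *Ccl7* and 67 *Ccl8* UMIs, in the resident-like state. In contrast, the Wt cell with the most *Ccl2* (72 UMIs) had none of the other 3. Of the 10 highest *Ccl2* cells, 4 were monocyte-like in Wt and 6 were of the stress state in Gata3KO. Of the 10 highest *Ccl12* cells, 6 were of the interferon state in Wt, and 4 were resident-like in Gata3KO.

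**Figure D4:**
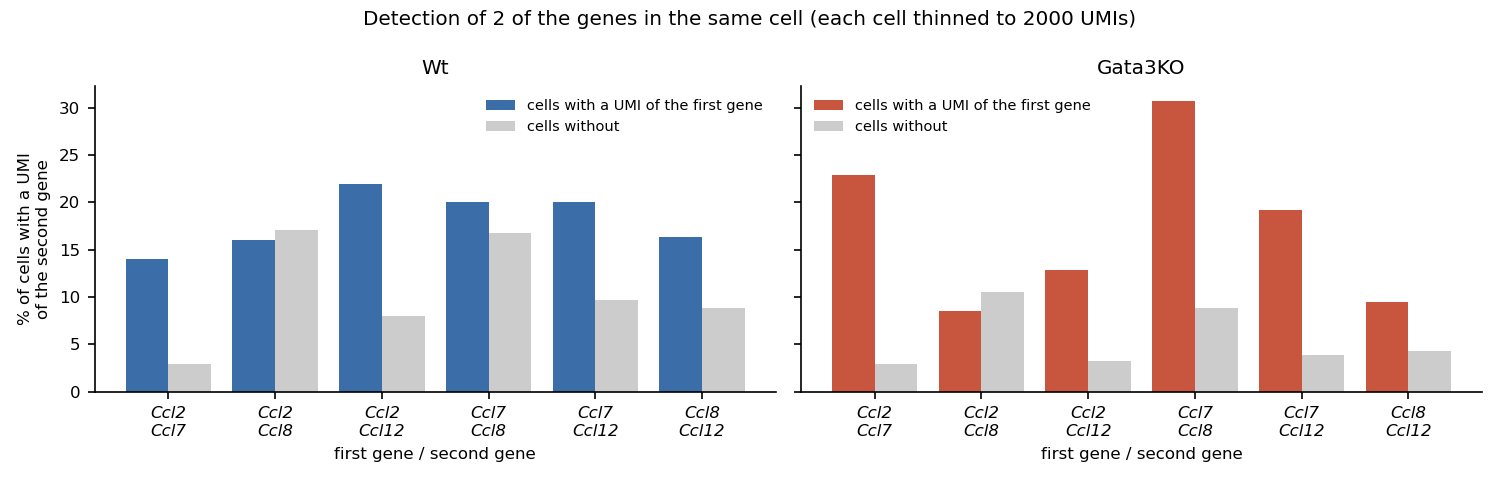
Percent of monocytes and macrophages with a UMI of the second gene of each pair, among cells with (coloured) and without (grey) a UMI of the first, each cell thinned to 2000 UMIs. *Ccl7* is found with *Ccl2* in 14.0% of Wt and 22.9% of Gata3KO cells, against 2.91% and 2.94% without, while the bars for *Ccl2* and *Ccl8* are near each other.

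In thinned cells, *Ccl7* was more frequent in cells with *Ccl2* than in those without, in both libraries. *Ccl7* was detected in 7 of 50 Wt cells with *Ccl2* (14.0%) and in 2.91% of those without. In Gata3KO it was detected in 16 of 70 (22.9%) and in 2.94%. *Ccl12* was also more frequent in cells with *Ccl2*, at 22% against 8% in Wt and 12.9% against 3.24% in Gata3KO. *Ccl8* was not: it was found in 16.0% of Wt cells with *Ccl2* and 17.1% of those without, and in 8.57% and 10.6% in Gata3KO. *Ccl8* was found with *Ccl7* in 8 of 26 Gata3KO cells (30.8%) against 8.85% of those without, and in Wt in 3 of 15 cells (20%) against 16.8%. Most cells had none of the 4, namely 64.0% in Wt and 71.0% in Gata3KO. Cells with all 4 numbered 0 in Wt and 2 in Gata3KO.

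Across the 21 sets of state and library with at least 20 cells, the levels of *Ccl2* and *Ccl7* on the log2(CPM + 10) scale were correlated at r = 0.86. The other pairs were lower, with *Ccl8* and *Ccl12* at 0.59, *Ccl2* and *Ccl12* at 0.54, *Ccl7* and *Ccl12* at 0.53, *Ccl7* and *Ccl8* at 0.50 and *Ccl2* and *Ccl8* at 0.44. These sets share libraries and depth, so the values are descriptions. Among 5566 other genes, those most like *Ccl2* were the neutrophil chemokine gene *Cxcl2* (0.87), the adaptor gene *Sh3pxd2b* (0.86) and the transcription factor gene *Cebpb* (0.86). Those most like *Ccl7* were *Cxcl2* (0.82), the complement receptor gene *C5ar1* (0.81) and the hyaluronan receptor gene *Cd44* (0.79). *Ccl8* was most like the folate receptor gene *Folr2* (0.83), the complement gene *C1qc* (0.82) and the biliverdin reductase gene *Blvrb* (0.82). *Ccl12* was most like the interferon-induced chemokine gene *Cxcl10* (0.75), *Gadd45g* (0.66) and *Snx2* (0.63). The first 2 genes thus shared *Cxcl2* as their nearest gene, and the other 2 had different ones.

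**Figure D5:**
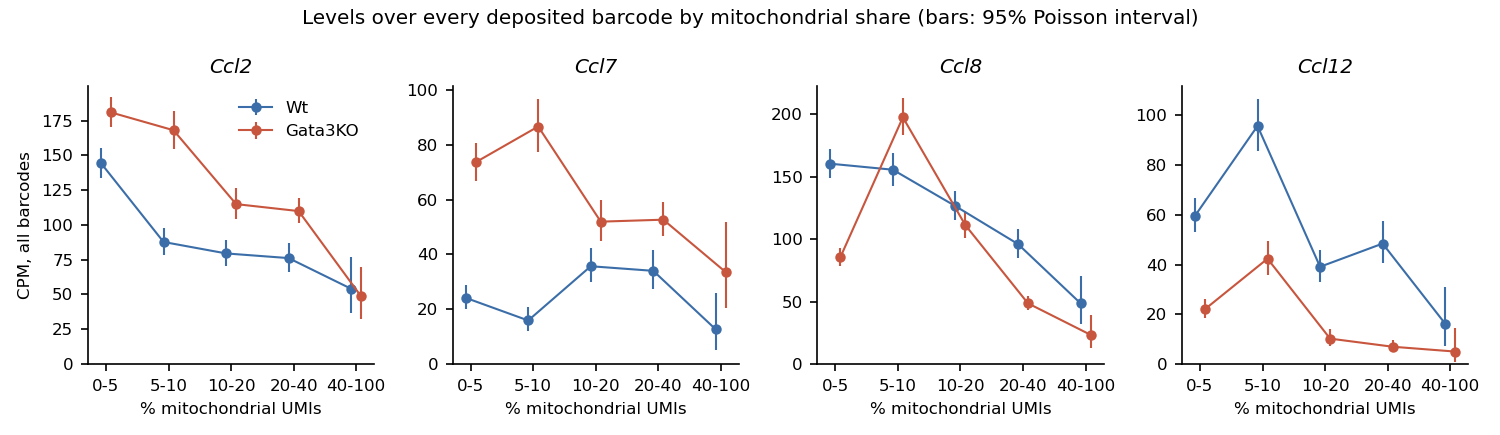
Levels of the 4 genes in CPM over every deposited barcode, split by the percent of mitochondrial UMIs, in Wt (blue) and Gata3KO (red) with 95% Poisson intervals. *Ccl7* is higher in Gata3KO and *Ccl12* lower in each of the 5 ranges, while *Ccl8* changes side between them.

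Since the mitochondrial share differed between libraries (median 15.7% in Wt and 21.8% in Gata3KO), the genes were also summed over all barcodes in 5 ranges of that share. *Ccl7* was higher in Gata3KO in all 5, with log2 ratios from 0.54 to 2.45. *Ccl12* was lower in all 5, from -2.80 to -1.18, and its interval in the range above 40% included 0 (-4.21 to 0.31). The part of the mitochondrial share in the *Ccl7* and *Ccl12* differences was not tested. *Ccl2* was higher in Gata3KO in the 4 ranges up to 40% (0.32 to 0.94) and level above it (-0.15, -0.94 to 0.63). *Ccl8* was lower below 5% (-0.91), higher from 5% to 10% (156 CPM in Wt and 198 in Gata3KO, 0.34, interval 0.18 to 0.51), and lower again above 20%. From 10% to 20% its interval included 0 (-0.19, -0.38 to 0.01). These barcodes hold every cell type, so the values of all 4 genes are not those of the class.

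The receptors were measured in the same cells. *Ccr2*, which binds Ccl2, Ccl7 and Ccl12, had 337 CPM in Wt and 237 CPM in Gata3KO in the whole class (log2 ratio -0.51, -0.61 to -0.41). *Ccr1*, which binds Ccl7, stood at 30.7 and 64.7 CPM (1.07, 0.79 to 1.36). *Ccr1* was thus past a 1.5-fold difference and *Ccr2* within it. *Ccr3* was below 1 CPM in both libraries, the scavenging receptor gene *Ackr1* had 2 Wt UMIs and 0 in Gata3KO, and *Ccr8* and *Ackr2* were not listed. In the resident-like state, where *Ccl7* differed most among the 3 states with at least 20 cells of each library, *Ccr1* was 7.93 CPM in Wt (5 UMIs) and 115 in Gata3KO, and *Ccr2* was 317 and 397. In the Wt monocyte-like state, the highest for *Ccl2*, *Ccr2* stood at 517 CPM. The highest *Ccr2* levels were outside the class, in a cluster with MHC class II genes at 1604 and 1609 CPM, where *Ccl2* was 36.0 and 18.0 CPM.

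Other chemokine genes went both ways. Of 10 other CC chemokines 6 were measured, with 0 higher and 3 lower by 1.5-fold, beside 3.40% and 6.33% of all measured genes. Their median log2 ratio was -0.57, beside 0.04 over all measured genes. *Ccl3* (0.44) and *Ccl6* (-0.34), which attract monocytes and other myeloid cells, were the highest, and *Ccl5* (-4.45) and *Ccl22* (-6.93, 133 Wt and 2 Gata3KO UMIs), made by mature dendritic cells among others, the lowest. Of 8 CXC chemokines 5 were measured, with 2 higher and 2 lower (median -0.11). The neutrophil attractants *Cxcl1* (1.54) and *Cxcl2* (0.62) were higher and the interferon-induced *Cxcl10* (-3.01) and *Cxcl9* (-4.78) lower.

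The genes known to induce or limit chemokine transcripts were counted from lists in the same class, where 3.40% of all measured genes were higher and 6.33% lower by 1.5-fold. Of 12 genes of NF-kappaB and inflammatory induction, 11 were measured, 1 was higher and 1 lower (median 0.09). The cytokine gene *Il1b* (0.62) and the receptor gene *Tlr4* (0.44) were highest, and the NF-kappaB subunit genes *Rela* (-0.34) and *Relb* (-0.61) lowest. Of 10 genes of interferon signalling, 0 were higher and 6 lower (median -0.80). The receptor genes *Ifngr1* (0.24) and *Ifnar2* (0.23) were highest, and the transcription factor gene *Irf7* (-2.40) lowest. The 4 interferon receptor genes on the list were within 1.5-fold. Of 5 genes that act on chemokine mRNA stability none passed 1.5-fold either way (median 0.29). These included the stabilising factor gene *Elavl1* (0.42), the decay factor genes *Zfp36* (0.33) and *Zfp36l2* (0.05), and the ribonuclease gene *Zc3h12a* (0.19).

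Of 10 genes of anti-inflammatory and alternative activation 7 were measured, 2 were higher and 0 lower (median 0.07), beside the same 3.40% and 6.33% of all measured genes. The mannose receptor gene *Mrc1* (0.79) and *Socs3* (0.69) were highest, and *Stat6* (0.02) and the interleukin-10 receptor gene *Il10ra* (-0.58) lowest. Of 8 AP-1 and early-response genes, which tissue dissociation can also induce, 2 were higher and 0 lower (median 0.47). *Ier3* (1.07) and *Fosb* (0.92) were highest and *Jun* (0.34) and *Jund* (-0.20) lowest. *Ier3* is a leading gene of the stress state, which gave 56.8% of the Gata3KO *Ccl7* UMIs. The part of the early response in the *Ccl7* difference was not tested.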

How the data were processed

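UMI counts per gene and barcode, 1 table per library, were used as deposited. They are unnormalized whole numbers, and every listed gene is in at least 5 cells of its library. The submitters' processing notes name R 3.6.1, Cell Ranger 3.0.1, Seurat 3.0.2 and the build mm10, and settings or cell filters were not found in those sources. Kept cells had 500 or more UMIs, 200 or more genes and a mitochondrial share of at most 10%. Both libraries were clustered together, without the 4 genes, on 2000 variable genes, 30 principal components, 15 neighbours and Leiden resolution 1.2 (scanpy 1.11.5, leidenalg 0.10.2, Python 3.11.15). Clusters took the marker list with the highest mean z-score, leaving out the interferon-response list. Limits set after the data were seen left clusters unnamed under a score of 0.5 or with fewer than 3 markers at 50 CPM. Also left unnamed were clusters with cell-cycle genes as the highest list, and clusters whose leading genes held more markers of another class. So were clusters with few UMIs and no marker of the name among their leading genes. The cycling and MHC class II clusters fell outside the class by these further rules. The largest cluster, led by *Ctla2a*, *Slc9a3r2* and *Cdh5* (178 Wt and 49 Gata3KO cells), took the endothelial list and was also outside. *Ptprc* was detected in 84.1% of its cells and the macrophage marker *Csf1r* in 73.6%. In the muscle-transcript cluster these were 91.9% and 83.8%. Both clusters thus carried myeloid transcripts, and the class does not hold every cell with such transcripts. The resident-like state carries its markers *Mrc1*, *Cbr2*, *F13a1* and *Pf4* among its leading genes.

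UMIs were summed per state and library and scaled to CPM. Intervals are exact Poisson (levels), conditional binomial (ratios) and Clopper-Pearson (shares), at 95% (scipy 1.17.1). A count of 0 is given with the 3 counts it allows, for shares and levels. Interval bounds of differences in shares cover counting error only. Listed genes count as measured from 20 CPM in 1 library, and 1 CPM was added for list medians. The calculation was tested on simulated counts with counting error only, so that test does not cover the spread between cells. No test between genotypes was possible with 1 library each.

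The members and lists were chosen with earlier results of these data known. Named are the 4 genes, *Gata3* and *Cx3cr1*, the receptors of the list, the 2 highest and 2 lowest of each other list, the 3 most alike genes of each member, and the leading genes of states. The muscle-transcript, MHC class II and endothelial-list clusters, *Ccl11*, *Ly6g*, *Ptprc*, *Csf1r* and *Pax7* were named after values were seen. Some genes that the rule selects are not reported here.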

Additional observations from a re-analysis of the deposited data

Results flagged for a closer look

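The library difference of *Ccl2* and *Ccl8* took opposite signs in different macrophage states, with counting intervals that do not include 0. The genes had been chosen for going opposite ways over myeloid states, and these contrasts between states were not tested. For *Ccl2*, the log2 ratio of Gata3KO over Wt was 1.11 in the resident-like state and -1.43 in the *Npl* state. For *Ccl8*, it was 0.85 in the resident-like state against -0.38 in the *Npl* state and -2.03 in the *Mmp12* state. Of these, the *Npl* value of *Ccl8* turned positive with every cell weighted alike (0.07) and with thinned cells (0.32). The other signs held without the top cell of each library, with *Ccl2* at 1.33 (resident-like) and -1.31 (*Npl*) and *Ccl8* at 1.65 (resident-like) and -1.60 (*Mmp12*).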

How the results depend on the processing

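Over 15 alternatives *Ccl7* was higher and *Ccl8* lower in the Gata3KO library in all 15, *Ccl12* was lower in all but 1, and *Ccl2* was positive in 8. Leaving out called doublets gave no value of its own, since 0 were called. For *Ccl2* the log2 ratio was 0.21 over every barcode, 0.28 with a 20% mitochondrial limit, -0.54 with at least 1000 UMIs and at most 5%, 0.12 with cells weighted alike, 0.14 with thinned cells, 0.55 over all kept cells, and 0.57 and -0.28 with levels averaged over 3 and 6 states weighted alike. In the same settings *Ccl8* stood at -0.60, -0.60, -1.28, -0.72, -0.55, -0.32, -0.17 and -0.44. It was -1.10 at Leiden resolution 0.6, -1.36 when clustered with the 4 genes, -0.52 as a mean over the ratios of 3 single states and -0.65 without its 10 top cells per library. *Ccl7* was 0.74 with the strict filter, 1.09 with thinned cells, 1.92 over all kept cells, 0.69 as that mean, 1.93 with levels averaged over 3 states, and 1.93 and 1.80 without the 1 and 10 top cells. *Ccl12* was -1.34 over all kept cells, and -0.58 and 0.035 with levels averaged over 3 and 6 states. Without thinning, the difference in share of cells was 9.28 points for *Ccl7* and -10.9 for *Ccl12*. The percent of genes past 1.5-fold was 25.1% with thinned cells and 15.8% over all kept cells. Leaving out top cells and averaging levels over states were chosen after seeing the data. The cause of these shifts was not tested. No paired analysis was possible because each genotype has 1 library. Within the class, sums of under 50 UMIs per state limit *Ccl7* and *Ccl12* most.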

Other observations

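Most UMIs of the 4 genes were in monocytes and macrophages. Of the UMIs of kept cells, the class held 82.1% (*Ccl2*), 80.8% (*Ccl7*), 87.2% (*Ccl8*) and 72.6% (*Ccl12*) in Wt, and 87.3%, 89.4%, 93.2% and 97.6% in Gata3KO. Over all genes, the class held 4260872 of 8321598 UMIs in Wt and 7815010 of 9661302 in Gata3KO. It was 34.1% and 65.5% of the kept cells. The class was thus larger in Gata3KO, and nothing is read from the higher shares of the 4 genes there. Cycling cells, left unnamed, were another source, with *Ccl12* at 129 CPM in 27 Wt cells and 8.06 CPM in 17 Gata3KO cells, and *Ccl8* at 6.98 and 139 CPM. The Gata3KO set is under 20 cells, and 45 of the 92 Wt *Ccl12* UMIs were in 1 cell. In dendritic cells *Ccl2* had 14 UMIs in 160 Wt and 15 in 52 Gata3KO cells, and *Ccl8* 16 and 0. Some sets outside the class had levels like those within it. An unnamed cluster led by *9930022D16Rik* stood at 195 CPM for *Ccl2* in 42 Wt cells and 172 CPM in 40 Gata3KO cells, from 21 and 27 UMIs.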
